A study of Mus musculus with 145 samples.

Results

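The comparison described here set 15 libraries of dorsal skin from mice exposed to 5 mJ/cm2 of ultraviolet light, taken 6, 24 and 48 h after exposure, against 15 libraries of sham-exposed dorsal skin of the same times. These 30 libraries were all those that the sample labels assign to the 2 arms at the 3 times, out of 145 in the whole series, and each of the 6 groups of dose and time held 5 libraries. The study exposed mice to the lamps of a sunbed canopy, whose output was 96.4% UVA and 3.6% UVB, at doses of 5, 10, 20 and 40 mJ/cm2 beside sham and skin taken at 0, 6, 24, 48, 72 and 96 h. The sample titles number the animals one by one, and the sources used here give no strain, sex or age. Expression was measured by polyA RNA sequencing of whole dorsal skin, so that a change in the share of a cell type and a change of RNA per cell cannot be told apart. The 5 mJ/cm2 dose is the lowest used, and the 3 times were joined, with time as a block, to gain power for it.

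Ultraviolet light joins neighbouring pyrimidines in DNA into dimers and related photoproducts. An RNA polymerase II that meets such a lesion on the transcribed strand stalls, and transcription-coupled nucleotide excision repair is recruited there. The chance that a gene carries a blocking lesion grows with the length of DNA that must be transcribed, which is why long genes are a recognised readout of transcription after ultraviolet exposure. In epidermis the same lesions stabilise p53, which raises genes of cell cycle arrest and apoptosis, and keratinocytes under stress switch on keratins such as Krt6 and Krt16.

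The 30 libraries held 5204559 to 51712718 counts in 5 mJ/cm2 skin and 3884044 to 36081112 counts in sham skin. All 11 basal keratinocyte and 46 of 47 epidermal differentiation genes listed were measured, together with all 25 skeletal muscle markers, whose mean per library ran from 9.24 to 10.66 log2 CPM in 5 mJ/cm2 skin and from 9.49 to 10.69 in sham skin (CPM, counts scaled to library size). The share of counts from the mitochondrial genome was 2.76% to 8.32% in 5 mJ/cm2 skin (median 3.85%) and 2.91% to 13.5% in sham skin (median 5.87%), and the 13.5% library, sham 6 h replicate 4, stood apart from its group. The library of 5 mJ/cm2 at 48 h replicate 3 carries a title marking a repeat.

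No gene passed an adjusted p of 0.05 in the joined comparison (edgeR quasi-likelihood test, 18677 genes, smallest adjusted p = 0.144, percent called 0). At an unadjusted p under 0.05 there were 1745 genes (9.34%), of which 635 were higher (3.4%) and 1110 lower (5.94%) in 5 mJ/cm2 skin. DESeq2, run on the same genes as an alternative, called 28 genes, of which 26 were lower, and 21 of those 26 span at least 200 kb of genome. The 28 include Mup-ps19, Gm20528 and Gm13008, with extreme log2 fold changes of -21.66, -21.96 and 16.77. None of these is among the 21. Leaving out 5 mJ/cm2 6 h replicate 2 gave 12 calls in the quasi-likelihood test, and leaving out any other single library gave 0. The 20 named genes with the smallest p in the quasi-likelihood test were also mostly long and mostly lower. Of these 20, 18 were lower, 15 span at least 200 kb, and their median span was 454 kb against 18.1 kb over all genes tested (GENCODE vM21 annotation of GRCm38). All 20 had the same sign at 6, 24 and 48 h. Choosing genes by a joined dose effect over these same libraries favours a constant sign. The share of all genes with a constant sign was not counted.

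Longer genes lay lower in 5 mJ/cm2 skin. Genes under 10 kb had a median log2 fold change of 0.09 in 5 mJ/cm2 skin against sham, and genes of 10 to 50 kb one of 0.01. The median was -0.07 for genes of 50 to 100 kb, -0.11 for 100 to 200 kb and -0.17 for 200 to 500 kb. In the 162 genes of 500 kb and over it was -0.31. The share of genes lower at an unadjusted p under 0.05 was 2.49% under 10 kb, 15.3% at 100 to 200 kb and 50.6% at 500 kb and over, beside 5.94% of all genes. Of the 814 genes spanning at least 200 kb, 267 were lower and 0 higher at that threshold, 716 had a negative fold change, and their median was -0.20. None of the 814 passed the adjusted threshold over the joined times. Without the 4 libraries above 8% mitochondrial counts (1 of 5 mJ/cm2 and 3 of sham), 136 of the 814 were lower and 0 higher at an unadjusted p under 0.05, and of all genes 355 were higher and 389 lower. Over all genes 489 had an unadjusted p under 0.05 in the libraries whose titles end in R1_001 (8 in each arm). In those ending in R1 (7 in each arm) 2424 did, beside 1745 (9.34%) in all 30 libraries. The R1_001 set, the larger of the 2, thus had far fewer small p-values.

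**Figure D1:**
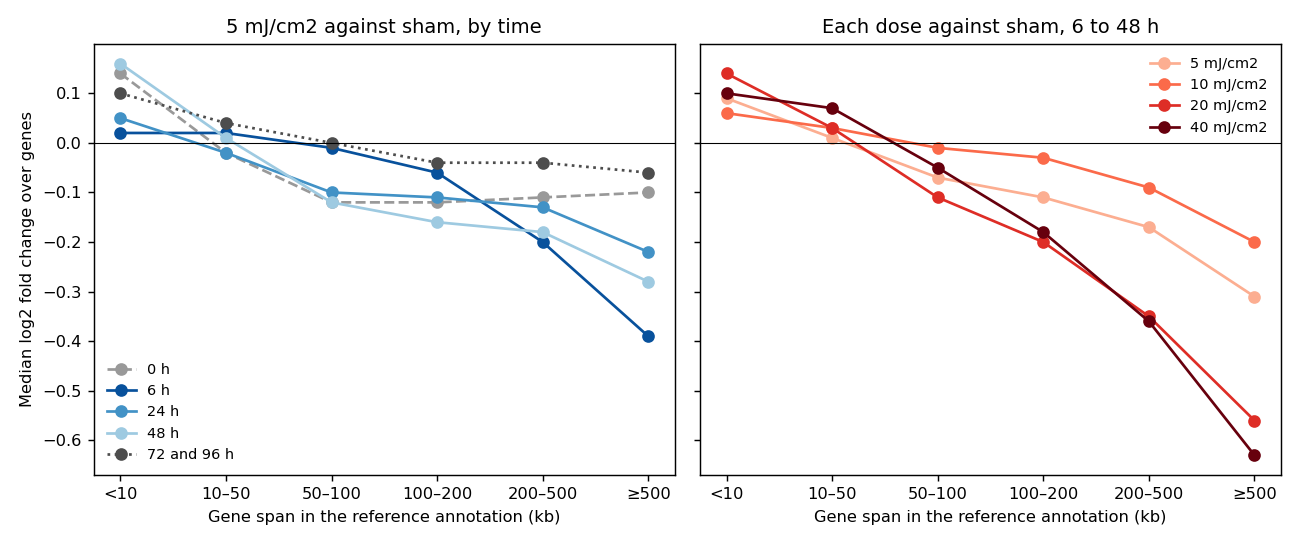
Median log2 fold change over genes (y axis) by gene span in kb (x axis). The left panel shows 5 mJ/cm2 against sham at each time and the right panel each dose against sham over 6 to 48 h, with the sham libraries shared by all doses. Medians decline with span at 6, 24 and 48 h, down to -0.39 at 6 h for genes of 500 kb and over.

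The decline was present at each of the 3 times. For genes of 500 kb and over the median was -0.39 at 6 h, -0.22 at 24 h and -0.28 at 48 h. At 6 h the shorter bins lay close to 0, with medians of 0.02 under 10 kb, -0.01 at 50 to 100 kb and -0.06 at 100 to 200 kb, whereas at 24 and 48 h genes of 50 to 100 kb already had medians of -0.10 and -0.12. Over the joined times the order by span was also seen among genes of like total exon length. With 4 to 8 kb of exon sequence, medians were 0.00 for spans of 10 to 50 kb, -0.18 for 200 to 500 kb and -0.31 for 500 kb and over (36 genes). With 8 kb or more of exon sequence they were -0.04, -0.18 and -0.32 for the same bins (119 genes in the last). With under 4 kb of exon sequence they were 0.04, -0.05 and -0.23, the last from 7 genes only. In this last group the medians at 48 h were 0.08, 0.02 and -0.00. Of its genes of 200 to 500 kb, 5% were lower over the joined times at an unadjusted p under 0.05. Among all genes of that span 28.4% were. Exon length went with the difference too. Among genes spanning 10 to 100 kb, medians over 6 to 48 h were 0.04 with under 2 kb of exon sequence, 0.03 with 2 to 4 kb, -0.01 with 4 to 8 kb and -0.08 with 8 kb and over. At 48 h these were 0.14, 0.06, -0.05 and -0.15, at 24 h -0.05, -0.01, -0.03 and -0.11, and at 6 h they lay between 0.00 and 0.03. By level of expression, genes of 500 kb and over had joined medians of -0.33 at a mean under 2 log2 CPM, -0.34 at 2 to 4 and -0.26 at 4 and over.

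The same pattern can be read library by library as the mean log2 CPM of genes of 500 kb and over minus that of genes of 10 to 50 kb. At 6 h this level averaged -1.32 ± 0.30 in 5 mJ/cm2 skin and -0.90 ± 0.26 in sham skin (SD, n = 5 each). At 24 h it averaged -1.09 ± 0.14 in 5 mJ/cm2 skin and -0.82 ± 0.23 in sham skin. At 48 h it averaged -1.32 ± 0.20 in 5 mJ/cm2 skin and -1.03 ± 0.08 in sham skin, and there all 5 exposed libraries lay below all 5 sham libraries. At 6 h 3 of 5 and at 24 h 2 of 5 exposed libraries lay below every sham library, so the groups overlapped at those times. This level is given as a description, with no test.

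**Figure D2:**
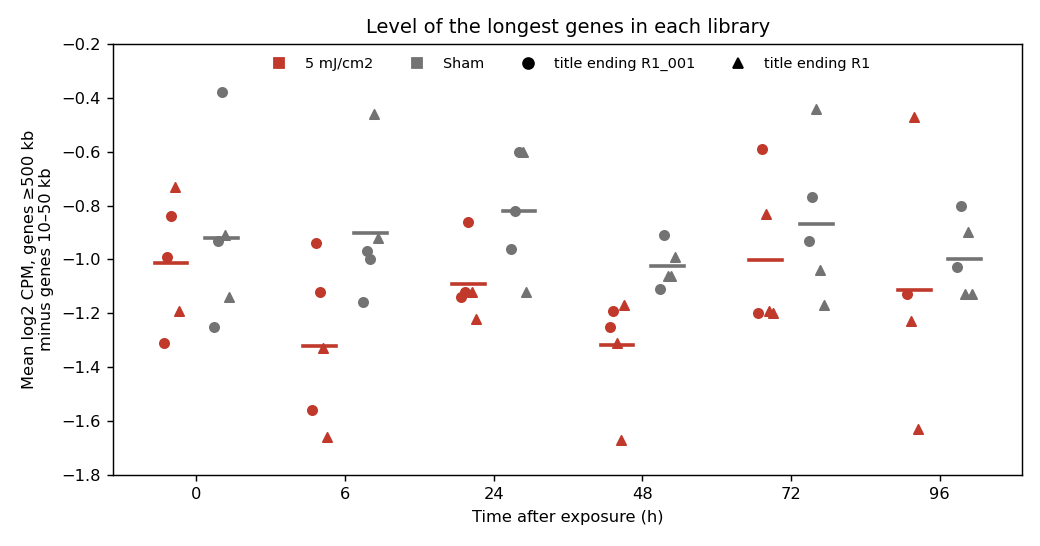
Mean log2 CPM of genes spanning 500 kb and over minus that of genes spanning 10 to 50 kb (y axis) in every 5 mJ/cm2 and sham library, by time (x axis, h). Points are libraries, with marker shape giving the title ending, and bars are group means. At 48 h the exposed libraries range from -1.67 to -1.17 and the sham libraries from -1.11 to -0.91.

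Sample titles end in R1_001 or in R1, a difference the labels do not explain, and values are given within each set. The exposed minus sham difference of the library level was -0.21 among titles ending in R1_001 (8 libraries in each arm) and -0.47 among those ending in R1 (7 in each arm). The gap was widest at 6 h, with -0.16 in the R1_001 set (3 in each arm) and -0.81 in the R1 set (2 in each arm). The median of the 814 very long genes was -0.12 in the R1_001 libraries and -0.28 in the R1 libraries, when each set was fitted alone. The libraries with the highest mitochondrial shares were high in the long-gene level as well. Sham 6 h replicate 4, with 13.5% mitochondrial counts, had the highest level of its group at -0.46, and sham 24 h replicates 3 and 4, with 11.5% and 9.52%, were both at -0.60. With the mitochondrial percent as a covariate the very long genes had a median of -0.12, and without the 4 libraries above 8%, a choice made after the data were seen, it was -0.14. At 24 h the median of -0.15 over the very long genes became -0.08 without sham replicate 3 or without sham replicate 4. At 48 h the median of -0.20 became -0.12 without 5 mJ/cm2 replicate 4.

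At 6 h alone, 6 genes passed the adjusted threshold, all 6 lower in 5 mJ/cm2 skin (0.0321% of genes called lower, and 0 called higher) and all 6 spanning at least 200 kb. At an unadjusted p under 0.05 there were 306 genes higher (1.64%) and 326 lower (1.75%). Of the 6 called genes, the most negative fold change was that of Cadps, a factor for release of dense-core vesicles that spans 451 kb. It had 0.139, 0.655, 0.602, 0.237 and 0.199 CPM in 5 mJ/cm2 skin at 6 h, against 1.07, 1.67, 1.96, 2.27 and 1.47 CPM in sham skin. The groups did not overlap, and the log2 fold change was -2.12 ± 0.34 (SE, edgeR adjusted p = 0.00955). At 24 h Cadps averaged 1.73 ± 0.279 CPM in 5 mJ/cm2 skin and 1.59 ± 0.188 CPM in sham skin (SD, n = 5 each).

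Col4a6, a type IV collagen chain of basement membranes (309 kb), had 12.8, 18.9, 15.7, 11.7 and 12.5 CPM in 5 mJ/cm2 skin at 6 h, against 31, 26, 27.3, 28.6 and 27.7 CPM in sham skin. Its highest exposed value lay below its lowest sham value, with a log2 fold change of -0.97 ± 0.16 (adjusted p = 0.00955). Pard3b, a relative of the polarity scaffold Par3 (1000 kb), had 15.3, 23.7, 17.2, 14.5 and 10.4 CPM in 5 mJ/cm2 skin and 32, 27, 33.5, 35.8 and 31.9 CPM in sham skin at 6 h. It fell by 0.99 on the log2 scale (SE 0.17, adjusted p = 0.00955), again without overlap. The endosomal sodium-proton exchanger Slc9a9 (561 kb) averaged 14.8 ± 3.4 CPM in 5 mJ/cm2 skin and 26.3 ± 2.94 CPM in sham skin (log2 fold change -0.84, adjusted p = 0.00955). The trafficking scaffold Lrba (558 kb) averaged 28 ± 5.65 CPM in 5 mJ/cm2 skin and 48.1 ± 6 CPM in sham skin (log2 fold change -0.79, adjusted p = 0.0155). Thsd4, which binds fibrillin microfibrils (555 kb), averaged 3.66 ± 0.989 CPM in 5 mJ/cm2 skin and 8.53 ± 2.18 CPM in sham skin (log2 fold change -1.24, adjusted p = 0.0437). For all 6 genes the 2 groups did not overlap at 6 h. The genes were called on these same libraries, so the lack of overlap adds no support to the calls. The share of all genes without overlap was not counted at any time. The same limit holds for the other genes given below without overlap, which were picked on these data too.

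**Figure D3:**
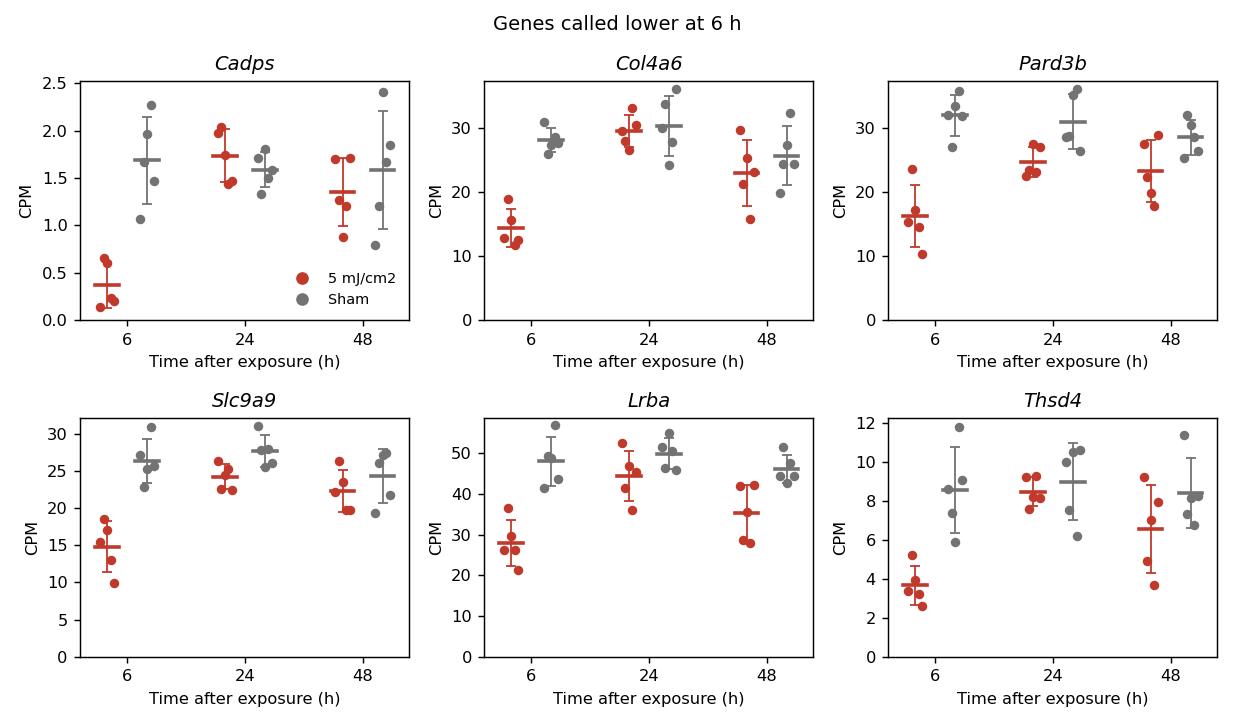
CPM (y axis, from 0) of the 6 genes called lower at 6 h, in each library by time (x axis, h), with means and SD bars (n = 5 per group). At 6 h every 5 mJ/cm2 library lies below every sham library in all 6 panels, which show genes called on these same libraries.

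These calls rest on few libraries. Leaving out 5 mJ/cm2 6 h replicate 4, 5 mJ/cm2 6 h replicate 5 or sham 6 h replicate 4 each left 0 calls at 6 h, with smallest adjusted p-values of 0.074, 0.066 and 0.0509, and leaving out 5 mJ/cm2 6 h replicate 2 gave 16. The libraries whose loss left 0 calls all have titles ending in R1, and 5 mJ/cm2 6 h replicate 2 has one ending in R1_001. Sham 6 h replicate 5 also ends in R1, and calls remained without it. Thsd4 was the least stable of the 6, called in 11 of the 30 fits with a single library left out and lost in the other 19 (adjusted p up to 0.36). Lrba was lost in 4 of the 30, the fourth being that without 5 mJ/cm2 6 h replicate 1, and the other 4 genes were each lost in 3. At 24 h and at 48 h the quasi-likelihood test called 0 genes. There were 192 genes higher (1.03%) and 735 lower (3.94%) at an unadjusted p under 0.05 at 24 h, and 574 higher (3.07%) and 605 lower (3.24%) at 48 h. DESeq2 called 25, 2 and 4 genes at 6, 24 and 48 h. The test of whether the 5 mJ/cm2 effect differed by time called 0 genes (534 at an unadjusted p under 0.05; DESeq2 called 1). Cadps had the smallest p of that edgeR test (unadjusted 8.82e-05, adjusted p = 1), so no gene had a called difference between times in the quasi-likelihood test.

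The long genes among the 20, chosen by their joined p, lay lower at all 3 times. Wwox, an oxidoreductase gene that in humans lies in a common fragile site (913 kb), had the smallest p of the joined comparison. Its CPM had a lowest, median and highest value of 4.44, 6.77 and 8.7 in 5 mJ/cm2 skin and 7.24, 9.35 and 10.7 in sham skin. The log2 fold change was -0.41 ± 0.08 (edgeR adjusted p = 0.144). The exposed and sham libraries did not overlap at 6 h or at 24 h. Fhit, a nucleotide hydrolase also known from a human fragile site (1610 kb), averaged 0.967 ± 0.449 CPM in 5 mJ/cm2 skin and 1.82 ± 0.595 CPM in sham skin (SD, n = 15 each). Its log2 fold changes were -0.61 at 6 h, -1.47 at 24 h and -0.69 at 48 h, and -0.92 ± 0.19 joined (adjusted p = 0.144). Every 5 mJ/cm2 library lay below the sham median of its time for both genes.

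The neural adhesion molecules Lsamp (2200 kb) and Negr1 (755 kb), both of the IgLON family, were both lower. Lsamp ranged from 2.45 to 8.62 CPM in 5 mJ/cm2 skin (median 5.95) and from 6.28 to 13.3 CPM in sham skin (median 8.35), with a log2 fold change of -0.59 ± 0.13 (adjusted p = 0.164). Negr1 averaged 3.59 ± 1.4 CPM in 5 mJ/cm2 skin and 6.03 ± 2.38 CPM in sham skin, with a log2 fold change of -0.78 ± 0.17 (adjusted p = 0.173). For Lsamp all 5 exposed libraries lay below all 5 sham libraries at 6 h, and 4 of 5 did at each later time. Dpp6, an auxiliary subunit of voltage-gated potassium channels (910 kb), showed its widest gap at 48 h, where it averaged 0.85 ± 0.388 CPM in 5 mJ/cm2 skin and 2.51 ± 0.521 CPM in sham skin without overlap (log2 fold change -1.58, unadjusted p = 4.9e-05, adjusted p = 0.458). Pde11a, a cyclic nucleotide phosphodiesterase (350 kb), averaged 2.56 ± 0.674 CPM in 5 mJ/cm2 skin and 4.04 ± 1.18 CPM in sham skin (log2 fold change -0.66, adjusted p = 0.144). The remaining long genes among the 20 were Lrba, Pard3b, Rnf150, Eml6, Tbc1d32, Ppm1l, Vps13b, Ccser1 and Ptprm, with joined log2 fold changes from -0.67 for Eml6 to -0.39 for Ppm1l and Ptprm. None of these genes passed the quasi-likelihood threshold over the joined times, and DESeq2 called all 15 of the long ones.

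Among the shorter genes of the 20, Reep1 (103 kb) and Igf2 (16.1 kb) were lower, and Gsto1 and Tmprss11d were higher. Igf2, a growth factor, averaged 11.2 ± 2.34 CPM in 5 mJ/cm2 skin and 14.3 ± 1.54 CPM in sham skin (log2 fold change -0.36, adjusted p = 0.207). Gsto1, a glutathione transferase (9.82 kb), ranged from 38.2 to 86.1 CPM in 5 mJ/cm2 skin (median 53.1) and from 36.2 to 51.9 CPM in sham skin (median 43.8). Its log2 fold change was 0.33 ± 0.08 (edgeR adjusted p = 0.207, DESeq2 adjusted p = 0.026), and at 6 h its 5 exposed libraries lay above all 5 sham libraries. Gsto1 was picked by its p on these same libraries, so that lack of overlap adds no support. The serine protease gene Tmprss11d was barely detected, above 0 in 8 of 15 libraries of 5 mJ/cm2 skin (highest 0.361 CPM) and in 1 of 15 of sham skin (0.04 CPM).

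No p53 target passed the adjusted threshold at this dose. Of the 25 p53 targets of arrest and feedback, 5 were higher (20%) and 1 lower (4%) at an unadjusted p under 0.05, beside 3.4% higher and 5.94% lower of all genes, with a median log2 fold change of 0.08. Of the 16 apoptotic targets, 2 were higher and 0 lower, with a median of 0.10, beside 0.00 over all genes. Cdkn1a, the p21 inhibitor of cyclin-dependent kinases, ranged from 93.1 to 202 CPM in 5 mJ/cm2 skin (median 132) and from 76.1 to 157 CPM in sham skin (median 118). The arms overlapped, with a log2 fold change of 0.20 ± 0.10 (adjusted p = 0.543). Mdm2, the ubiquitin ligase that limits p53, had a log2 fold change of -0.09 ± 0.09, and Pmaip1, the BH3-only protein Noxa, one of -0.09 ± 0.17. Zmat3, a p53-induced RNA-binding protein, was at 0.08 ± 0.07. The sign for Pmaip1 was positive under some alternatives (0.16 in titles ending in R1_001), as was that for Mdm2 with the mitochondrial percent as a covariate (0.03), and that for Zmat3 was negative in titles ending in R1 (-0.04). The death receptor gene Tnfrsf10b averaged 8.29 ± 0.839 CPM in 5 mJ/cm2 skin and 5.56 ± 0.491 CPM in sham skin at 6 h, without overlap (log2 fold change 0.58, unadjusted p = 0.00212, adjusted p = 0.752). How many of all genes lacked overlap at 6 h was not counted. At 24 h Tnfrsf10b averaged 4.85 ± 0.857 CPM in 5 mJ/cm2 skin and 4.83 ± 1.17 CPM in sham skin. Psrc1, a microtubule regulator raised by p53, had a joined log2 fold change of 0.68 ± 0.24 (adjusted p = 0.452). Of 34 genes of nucleotide excision repair and lesion bypass, 2 were higher (5.88%, beside 3.4% of all genes) and 0 lower at an unadjusted p under 0.05 (median 0.07), and Ddb2, which takes part in recognising dimers, was at 0.03 ± 0.10 and at -0.10 in titles ending in R1.

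Keratinocyte stress genes varied widely between animals. Krt16 ranged from 4.59 to 158 CPM in 5 mJ/cm2 skin (median 12.6) and from 1.55 to 38.1 CPM in sham skin (median 8.72). The log2 fold change was 0.63 ± 0.39 (adjusted p = 0.602), and that of Krt6b 0.86 ± 0.45 (adjusted p = 0.553). Without 5 mJ/cm2 6 h replicate 5, the library at 158 CPM, they were 0.31 for Krt16 and 0.41 for Krt6b. Over the 33 measured stress genes, 28 had a positive fold change, 3 were higher (9.09%, beside 3.4% of all genes) and 1 lower (3.03%, beside 5.94%) at an unadjusted p under 0.05, and the median was 0.40. Without the 4 libraries above 8% mitochondrial counts, 0 were higher and 1 lower, with a median of 0.26. At 0 h these stress genes went the other way, with 31 of 33 below 0 and a median of -1.03. There 8 were lower (24.2%, beside 1.56% of all genes at 0 h). Of 46 epidermal differentiation genes 41 had a positive fold change with a median of 0.24, and 3 were higher at that threshold (6.52%, beside 3.4% of all genes). Their median was -0.07 at 6 h, with 28 of 46 below 0, 0.64 at 24 h and 0.20 at 48 h. Without the same 4 libraries it was 0.14 over the joined times, with 35 of 46 above 0 and 2 higher. At 0 h the median of the differentiation genes was -0.62, with 42 of 46 below 0 and 11 lower (23.9%). The Skint family gene Skint7 averaged 33 ± 14.1 CPM in 5 mJ/cm2 skin and 46.1 ± 19.8 CPM in sham skin (log2 fold change -0.46, adjusted p = 0.516), and Cd207, the Langerhans cell lectin langerin, had a log2 fold change of 0.18 ± 0.13 (adjusted p = 0.651). In the 28 measured cytokine and chemokine genes 0 were higher and 0 lower at that threshold.

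All 44 cell cycle genes had a positive fold change in 5 mJ/cm2 skin, with a median of 0.45, and 16 were higher at an unadjusted p under 0.05 (36.4%, beside 3.4% of all genes). None passed the adjusted threshold. Without the 4 libraries above 8% mitochondrial counts, 7 were higher, 43 of 44 had a positive fold change and the median was 0.50. Hair shaft and inner root sheath markers had a median log2 fold change over 23 genes of 0.48 for the joined times, with -0.59 at 6 h (18 of 23 below 0), 2.16 at 24 h (0 below 0) and -0.02 at 48 h (12 below 0). The cell cycle genes had medians of 0.28, 0.55 and 0.51 at these times. At 0 h their median was -0.37, with 39 of 44 below 0. For 10 mJ/cm2 against the same sham libraries over 6 to 48 h it was 0.63, with 43 of 44 above 0. The mean level of the hair markers was -1.34 to 1.51 log2 CPM in 5 mJ/cm2 skin and -1.56 to -0.30 in sham skin at 24 h. At 48 h it was -1.04 to 2.26 in 5 mJ/cm2 skin and -1.23 to 2.99 in sham skin, with the higher median in 5 mJ/cm2 skin. Sham 48 h replicate 2 held the 2.99, and the other sham libraries of that time lay at 0.55 or lower. That library also had the highest mean cell cycle level of its group, 4.96 log2 CPM. The part of hair growth in the cell cycle counts was not tested. All 15 adipocyte markers had a negative fold change (median -0.30, 3 or 20% lower at an unadjusted p under 0.05, beside 5.94% of all genes), and of 13 genes of the mitochondrial genome 12 did, with a median of -0.56 and 8 lower (61.5%). Without those 4 libraries, 0 adipocyte and 0 mitochondrial genes were lower at that threshold, with medians of -0.24 and -0.16. At 0 h all 13 mitochondrial genes had a negative fold change, with a median of -0.93. Of the interferon-stimulated genes, 26 of 28 had a positive fold change at 6 h (median 0.33) and 4 of 28 at 24 h (median -0.46), and none was called.

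The neighbouring dose is 10 mJ/cm2. Between 5 and 10 mJ/cm2 at 6 to 48 h, 0 genes were called by edgeR, with 238 at an unadjusted p under 0.05 (1.27%), 105 higher (0.562%) and 133 lower (0.712%), and DESeq2 called 3. The log2 difference of 5 minus 10 mJ/cm2 was 0.04 ± 0.11 for Cdkn1a and 0.12 ± 0.10 for Gsto1 (SE), and 0.04 ± 0.17 for Lsamp. Against 40 mJ/cm2, 1189 genes were higher (6.37%) and 1328 lower (7.11%) in 5 mJ/cm2 skin at an adjusted p under 0.05. Lsamp was among those higher in 5 mJ/cm2 skin, with 5.91 ± 1.54 CPM against 2.88 ± 1.24 CPM in 40 mJ/cm2 skin (log2 fold change 1.09, adjusted p = 0.000254). Cdkn1a was lower, with 139 ± 30.1 CPM in 5 mJ/cm2 skin against 289 ± 130 CPM in 40 mJ/cm2 skin (adjusted p = 7.54e-05).

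Each dose was set against the same sham libraries, so the values are given side by side without a test between them. The count of called genes was 0 at 5 and at 10 mJ/cm2. At 10 mJ/cm2, 928 genes had an unadjusted p under 0.05 (4.97%), 432 higher (2.31%) and 496 lower (2.66%), and DESeq2 called 17. At 20 mJ/cm2 926 genes were called (4.96%), 497 higher (2.66%) and 429 lower (2.3%), and at 40 mJ/cm2 4188 (22.4%), 2135 higher (11.4%) and 2053 lower (11%). The median of the 814 very long genes was -0.20, -0.11, -0.39 and -0.42 at 5, 10, 20 and 40 mJ/cm2. Pmaip1 had log2 fold changes of -0.09, 0.06, 0.86 and 2.16 at these doses, and Krt16 of 0.63, 0.23, 3.44 and 5.29. Both are panel genes chosen with earlier results of these data known. Gsto1 had 0.33, 0.23, 0.95 and 1.16, and the microtubule-binding protein gene Eml6 had -0.67, -0.51, -1.19 and -1.49. Slc24a3, a potassium-dependent sodium-calcium exchanger (474 kb) chosen for its fall at higher doses, had -0.36, -0.47, -1.46 and -2.09. In a list of 21 channel and adhesion genes taken from those lowered at higher doses of this series, 8 were lower (38.1%, beside 5.94% of all genes) and 0 higher at 5 mJ/cm2 at an unadjusted p under 0.05 (median -0.25). The list was chosen on these samples and is no independent evidence of its direction.

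**Figure D4:**
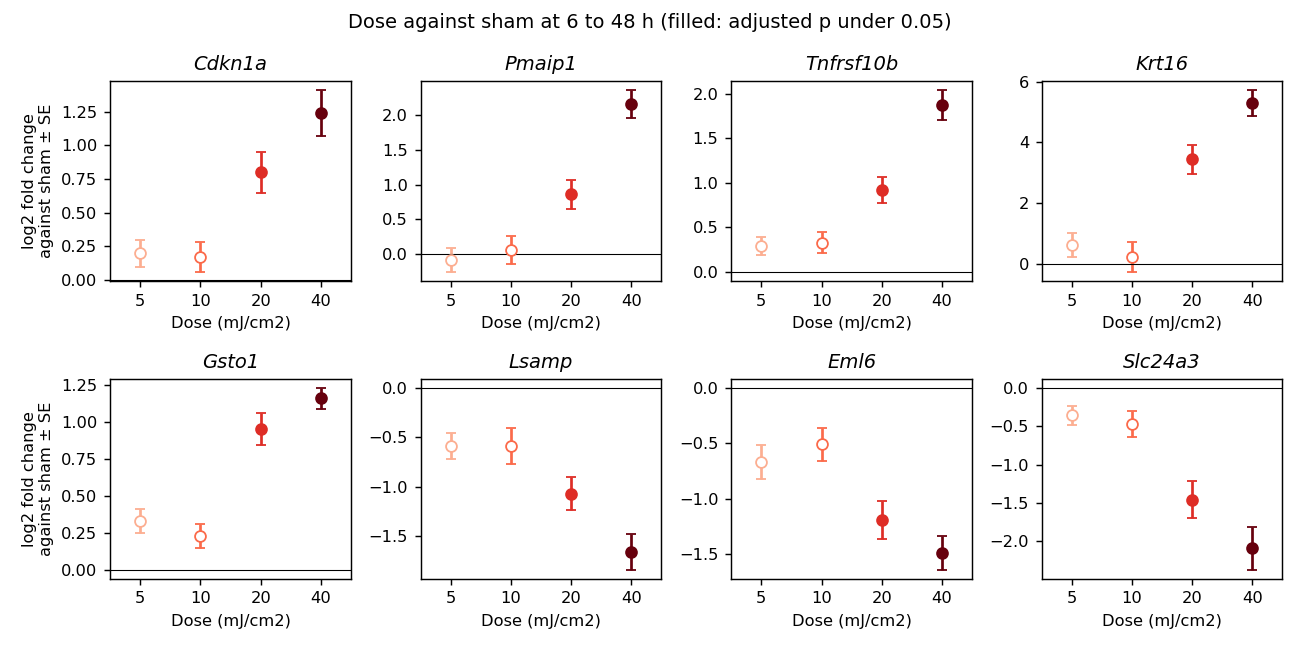
Log2 fold change ± SE against sham over 6 to 48 h (y axis) for 8 genes at 5, 10, 20 and 40 mJ/cm2 (x axis), with filled points where the edgeR adjusted p was under 0.05. All 5 and 10 mJ/cm2 points are open, and all 8 genes are filled at 20 and 40 mJ/cm2. Gsto1, Lsamp and Eml6 are among the 20 smallest p at 5 mJ/cm2. The others are panel genes chosen with earlier results of these data known, so their filled points are no independent evidence.

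At 72 and 96 h, with 9 libraries of 5 mJ/cm2 and 10 of sham, edgeR and DESeq2 both called 0 genes (231 higher, 1.24%, and 200 lower, 1.07%, at an unadjusted p under 0.05), and genes of 500 kb and over had a median of -0.06. The median over the 814 very long genes was -0.04 there, and leaving out single libraries moved it between -0.12 (without 5 mJ/cm2 96 h replicate 3) and 0.02 (without 5 mJ/cm2 96 h replicate 4). Wwox then averaged 8.57 ± 1.74 CPM in 5 mJ/cm2 skin and 9.75 ± 1.32 CPM in sham skin (adjusted p = 1). In skin taken at 0 h, with 5 libraries in each arm, edgeR called 0 genes and DESeq2 2 (545 at an unadjusted p under 0.05, 2.92%, with 253 higher, 1.35%, and 292 lower, 1.56%). Medians there were 0.14 under 10 kb, -0.12 at 50 to 100 kb and -0.10 at 500 kb and over, with -0.12 and -0.11 at 100 to 200 and 200 to 500 kb. Sham 0 h replicate 3 had 34.8% mitochondrial counts and the highest long-gene level of its group, -0.38. Over the very long genes the 0 h median was -0.11, and leaving out single libraries moved it between -0.21 (without 5 mJ/cm2 replicate 3 or 4) and -0.03 (without sham replicate 3). Whether the gradient differed between 0 h and the later times was not tested.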

How the data were processed

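The authors deposited a table of expected counts per gene, taken as such because its values are not all whole and its columns sum to different totals. Per the submitters' processing notes, the tools were bcl2fastq 2.20.422, fastp 0.23.0, STAR 2.7.10a and DESeq2 1.36.1 with GRCm39. The program that estimated the counts and its annotation are named in none of the sources at hand. Per the labels' protocols, TruSeq-stranded mRNA libraries from 300 ng RNA were read as single 75 base reads. Of the values, 12.6% were not whole, and all were rounded. Genes passing edgeR's expression filter (18677 of 55416, filter over all groups of the series) were tested in edgeR 4.0.16 (TMM, quasi-likelihood, Benjamini-Hochberg over all 18677 genes, R 4.3.3) with dose, time and title ending as terms. By-time effects came from 1 model over the 30 libraries. CPM was scaled by TMM over all 145 libraries and log2 CPM used a prior count of 2. Spans and merged exon lengths are from GENCODE vM21 (GRCm38), matched by gene ID for 18615 genes, so no coordinates are printed. Whether counting used strand is not given, so reads of overlapping genes may be shared. Alternatives were DESeq2 1.42.0, limma-voom 3.58.1, other scaling and filters, tissue covariates, subsets of times or title endings, and single libraries left out, and scripts were checked on simulated data. The named genes were the 20 smallest p-values (none passed), the genes called at a time and a panel of 30, which had 3 higher and 3 lower at an unadjusted p under 0.05 (median 0.13). Those of its members with a bearing on the groups described are given, chosen after their values were seen. One of the 20 is not reported here. Members, lists and panel were chosen with earlier results of these data known, the span bins and strata after seeing these values. Every animal is numbered separately in the titles. Replicate numbers follow accession order and pair nothing. The closest replicate pair had chi-square per degree of freedom of 8.56.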

Additional observations from a re-analysis of the deposited data

Results flagged for a closer look

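In groups of 5 libraries, a value was listed where the gap between one library and its nearest neighbour took up more of the group's range than Dixon's 95% critical value of 0.71. For genes, the gap and the range were taken on log2 CPM with a small constant added, whereas the values printed are CPM. Of 258 groups of 5 examined, 15 were listed (5.81%), and chance lists about 1 in 20. The level of genes of 500 kb and over was high in 5 mJ/cm2 24 h replicate 3 (-0.86, others -1.22 to -1.12) and low in 5 mJ/cm2 48 h replicate 4 (-1.67, others -1.31 to -1.17). The mitochondrial share was 13.5% in sham 6 h replicate 4, with the other 4 at 4.44% to 6.44%.

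Among the long genes, Eml6 had 3.39 CPM in 5 mJ/cm2 6 h replicate 2 (others 1.67 to 1.86) and 8.06 CPM in sham 24 h replicate 4 (others 3.88 to 4.64). Ppm1l had 70.6 CPM in 5 mJ/cm2 24 h replicate 3 (others 48.3 to 53.7) and 87.6 CPM in sham 48 h replicate 5 (others 66.8 to 71.7). Wwox was low in sham 6 h replicate 1 at 7.24 CPM (others 8.75 to 9.43), and Negr1 in sham 6 h replicate 3 at 3.27 CPM (others 4.96 to 5.85).

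Among the shorter genes, Reep1 was low in 5 mJ/cm2 48 h replicate 2 at 24.1 CPM (others 26.7 to 27.8). Tmprss11d was high in 5 mJ/cm2 24 h replicate 1 at 0.361 CPM (others 0 to 0.0491) and, at 0.04 CPM, in sham 48 h replicate 2 (others 0). Krt6b had 14.7 CPM in 5 mJ/cm2 48 h replicate 3, the titled repeat, with the others at 1.27 to 2.31. Ddb2 was low in sham 48 h replicate 2 at 10.5 CPM (others 15.9 to 16.7), and Sprr1b in sham 6 h replicate 2 at 0.973 CPM (others 3.55 to 5.85).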

How the results depend on the processing

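The count of called genes over 6 to 48 h was 0, and it was 28 with DESeq2, 2 with limma-voom, 2 with the mitochondrial percent as a covariate and 0 to 12 when single libraries were left out. The limma-voom calls were Wwox and Fhit, both lower. Those with the mitochondrial covariate were Gm20460 (12.9 kb, log2 fold change 5.12) and Gm28037 (14.4 kb, 11.89), both higher. No gene spanning at least 200 kb was called with that covariate. The 6 calls at 6 h became 25 with DESeq2, 0 with no filter on low counts and 0 to 16 when single libraries were left out. DESeq2 gave 2 calls at 24 h, 4 at 48 h, 1 for the change between times, 2 at 0 h, 3 for 5 against 10 mJ/cm2, 17 for 10 mJ/cm2 and 1619 for 20 mJ/cm2 against sham. The 2 at 24 h had extreme log2 fold changes of -21.64 and -25.16. So did Mup-ps19 (-21.66), Gm20528 (-21.96) and Gm13008 (16.77) among the 28 over 6 to 48 h. At 6 h Gm28901 (22.78) and Gm2436 (21.77) did, and at 48 h Gm3411 (-19.59). With no filter there were 2 calls for the change between times, 19 at 0 h and 2 for 10 mJ/cm2. The median of the very long genes stayed negative over 6 to 48 h, from -0.31 (500 kb and over, chosen after seeing the data) to -0.12, and from -0.21 to -0.17 with single libraries left out. With one library left out it ran from -0.29 to -0.16 at 6 h, -0.21 to -0.08 at 24 h, -0.26 to -0.12 at 48 h, -0.21 to -0.03 at 0 h and -0.12 to 0.02 at 72 and 96 h. Signs turned for Pmaip1 (0.16 in titles ending in R1_001, 0.03 without 48 h, 0.10 with the mitochondrial covariate, 0.14 with limma-voom, 0.06 without libraries above 8% mitochondrial counts), Ddb2 (-0.10 in titles ending in R1, -0.08 without 48 h, -0.0095 with the muscle covariate, -0.0091 without sham 48 h replicate 2), Zmat3 (-0.04) and Sprr1b (-0.77) in titles ending in R1, Sh3gl2 (0.03) and Tenm4 (0.01) without 6 h, and Mdm2 (0.03) with the mitochondrial covariate. The causes were not tested. No paired analysis was possible because the titles number each animal separately and replicate numbers follow accession order.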
